A study of Cucumis sativus var. sativus with 11 samples.

Results

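Of 23248 genes counted in 11 single cucumber ovaries, 13 met set thresholds for a lower level on the day the flower opened than 1 day later. The rise had to be similar in ovaries that received pollen, ovaries that received none and ovaries pollinated on plants with older fruits. Without the thresholds on size and level, 904 of 18679 genes tested had all ovaries of the opening day below all 8 later ones. The ovaries came from Elem Female, a gynoecious and non-parthenocarpic line grown in a net house, so its flowers are female and its fruits need pollen to set. No transgene, mutation or chemical treatment is given in the labels for any group. Anthesis ovaries (n = 3) were taken before pollination. The groups of the next day were pollinated with a pollinator genotype (n = 3), left without pollen (n = 3), or pollinated in the presence of older fruits (n = 2), a group called inhibited here. The labels do not say whether the ovaries came from separate plants, so the spread between libraries is that between single ovaries.

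The cucumber fruit grows from the ovary below the flower. Pollen tubes and fertilized ovules normally start its growth, an ovary without pollen in a line of this kind stops growing and withers, and fruits already growing on a plant can hold back younger ones. A gene that moves in the same way in all of these ovaries is one whose level changed in the day after opening in the presence and in the absence of pollen. RNA was taken from whole ovary tissue, in which more cells of a type and more RNA per cell cannot be told apart. The files give no gene names, and 0 identifiers could be looked up in the RefSeq gene table of cucumber, so what the 13 genes encode is not stated.

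The 13 genes were chosen from their measured values in all 11 libraries, and the levels below therefore describe that choice and are given with no test. The values are the deposited normalized counts, which are read counts divided by 1 factor per library and not by gene length, so they compare ovaries and not genes. On the scale of log2(normalized count + 1), the anthesis mean had to lie at least 0.8 below the mean of each later group, and the 3 later means had to lie within 0.7 of each other. The highest anthesis ovary also had to lie below all 8 later ovaries, and the mean count had to reach 50 in the later ovaries and 5 at anthesis. The floors left 16032 genes, the rise of at least 0.8 left 35, the limit on the range left 15, and the absence of overlap left 13. The rise is the mean of the 3 later group means less the anthesis mean on this scale, and it ran from 0.91 to 1.53 with a median of 1.06, against a median of -0.003 over the 18679 genes tested.

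Libraries held 18158218 to 26456643 reads assigned to genes. Anthesis replicate 3, which alone came from lane 2 while the others came from lane 3, stood apart on these genes. It was the lowest of the 3 anthesis ovaries for 13 of the 13 genes, against 36.5% of the genes tested. The rule used these same anthesis values, and a gene low in any 1 of these ovaries meets it more easily. Nothing is therefore read from this contrast. The median of the 13 genes lay 0.50 below the anthesis mean in replicate 3, 0.05 above it in replicate 1 and 0.44 above it in replicate 2. Over all genes tested the same medians lay between -0.003 and 0.006. The lane and the ovary cannot be told apart here, since lane 2 holds 1 library. Results are given with and without it. The share of reads assigned to no gene was raised, at 16.8 to 24.8%, in pollinated replicates 1 and 3, unpollinated replicate 3 and inhibited replicate 2, against 10.8 to 13.3% in the others. All anthesis and pollinated libraries and unpollinated replicate 1 carried one form of the second index sequence, and the rest carried another.

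**Figure D1:**
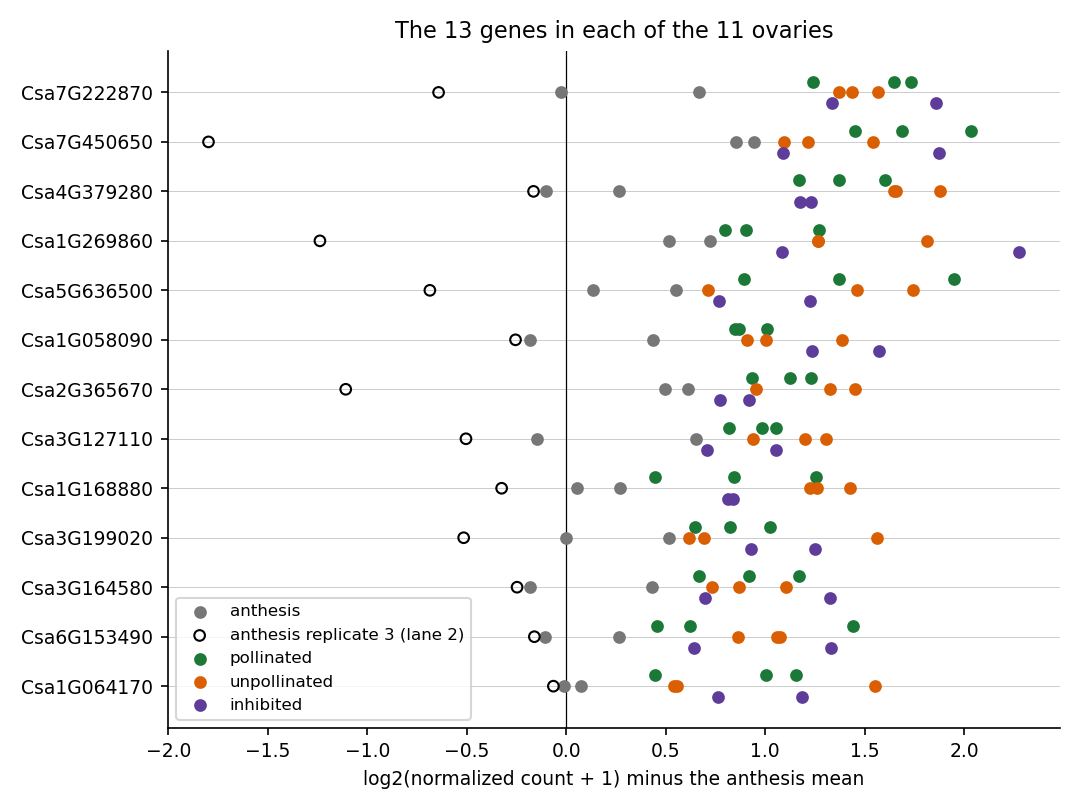
Each point is 1 ovary, plotted as log2(normalized count + 1) minus the mean of the 3 anthesis ovaries, with 1 row per gene and colours for the 4 groups; the open circle is anthesis replicate 3. In every row the 8 later ovaries lie to the right of all anthesis ovaries, as the rule required. The open circle is the leftmost point of all 13 rows.

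Csa7G222870 had the largest rise over all 11 libraries, 1.53, but single libraries decided this order. Without anthesis replicate 3 Csa4G379280 had more, 1.35 against 1.21, and Csa7G450650 had more without anthesis replicate 1 (1.92 against 1.52), anthesis replicate 2 (1.97 against 1.87) or inhibited replicate 1 (1.63 against 1.45). Its normalized counts were 207, 336 and 135 in anthesis replicates 1 to 3, then 705, 500 and 662 in pollinated, 628, 573 and 547 in unpollinated, and 769 and 535 in inhibited ovaries. The later ovaries did not separate by treatment, which the limit on their range favoured. The lowest of them stood 0.57 above the highest anthesis ovary on the log2 scale, where the rule required only that it lie above. The group means were 226 ± 102 at anthesis, 622 ± 108 with pollen, 582 ± 41.3 without it (SD, n = 3 each) and 652 ± 165 in inhibited ovaries (SD, n = 2). The edgeR log2 fold changes against anthesis were 1.46 ± 0.25 SE, 1.36 ± 0.25 SE and 1.53 ± 0.28 SE in that order.

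Csa4G379280 had the widest gap between anthesis and later ovaries, 0.90 on the log2 scale from the highest anthesis to the lowest later value. It stood at 84.4, 109 and 80.8 at anthesis, at 236, 205 and 277 with pollen, at 286, 336 and 288 without it, and at 206 and 214 in inhibited ovaries. Its anthesis ovaries were close together, its unpollinated ovaries were all above the other later ones, and its inhibited pair fell within the lower part of the pollinated range. It also had the smallest spread within groups of the 13 genes, a pooled SD of 0.18 on the log2 scale against a median of 0.39.

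Csa1G064170 was the gene with the steadiest anthesis level and the smallest rise, 0.91. It had 199, 211 and 192 normalized counts at anthesis, then 447, 274 and 404 with pollen, 292, 590 and 296 without it, and 341 and 457 in inhibited ovaries. The later ovaries differed from each other by more than the lowest of them differed from anthesis. Its 3 later group means nevertheless lay within 0.10 of each other on the log2 scale, the narrowest range of the 13.

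Csa3G164580 had a range of 0.11 between the later group means. Its counts were 154, 237 and 148 at anthesis, 333, 280 and 397 with pollen, 321, 293 and 379 without it, and 441 and 286 in inhibited ovaries. Anthesis replicate 2 came nearest to the later ovaries. Csa6G153490 stood at 302, 234 and 225 at anthesis, 684, 346 and 387 with pollen, 458, 530 and 525 without it, and 392 and 635 in inhibited ovaries. Pollinated replicates 2 and 3 were close to the highest anthesis ovary, and pollinated replicate 1 was far above both.

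Csa1G058090 had 139, 214 and 132 at anthesis, 285, 319 and 289 with pollen, 298, 317 and 414 without it, and 374 and 471 in inhibited ovaries. Its means were ordered pollinated, unpollinated and inhibited, with a log2 range of 0.50 that the overlap of single ovaries did not separate into 3 levels. Csa5G636500 had 106, 142 and 59.7 at anthesis, 251, 180 and 376 with pollen, 159, 267 and 325 without it, and 227 and 165 in inhibited ovaries. Unpollinated replicate 1 and inhibited replicate 2 were only a little above anthesis replicate 2.

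Csa1G168880 had by far the most reads of the 13. It stood at 3300, 3837 and 2538 at anthesis, 7598, 4325 and 5707 with pollen, 8547, 7627 and 7434 without it, and 5587 and 5689 in inhibited ovaries. Pollinated replicate 2 was nearer to anthesis than to the unpollinated ovaries. Counting error was small here. Anthesis replicate 3 held 2765 reads (exact 95% Poisson interval 2660 to 2870), against 3677 and 4318 in anthesis replicates 1 and 2.

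The other 5 genes were low at anthesis, and in 3 of them anthesis replicate 3 was far below its group. Csa7G450650 had 34.1, 36.4 and 4.59 at anthesis, 52.2, 78.6 and 61.5 with pollen, 40.6, 44.1 and 55.6 without it, and 40.4 and 70.1 in inhibited ovaries. Its value of 4.59 rests on 5 reads (exact 95% Poisson interval 1.62 to 11.7, counting error only), and the other anthesis ovaries were just below inhibited replicate 1. Csa1G269860 had 42.2, 36.4 and 10.1 at anthesis, 62.1, 47.9 and 44.6 with pollen, 61.9, 61.9 and 90.9 without it, and 126 and 54.5 in inhibited ovaries. Csa2G365670 had 38.6, 35.5 and 11 at anthesis, 48.5, 55.6 and 59.7 with pollen, 49.1, 63.8 and 69.7 without it, and 43.2 and 48.0 in inhibited ovaries. For these 3 genes the first 2 anthesis ovaries lay close to the lowest later ovaries.

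Csa3G127110 had 29.6, 52.4 and 22.9 at anthesis, 69.6, 66.1 and 58.8 with pollen, 64.0, 76.9 and 82.8 without it, and 69.5 and 54.5 in inhibited ovaries. Csa3G199020 had 38.6, 26.7 and 18.4 at anthesis, 42.3, 47.9 and 55.3 with pollen, 43.8, 80.7 and 41.4 without it, and 51.6 and 64.9 in inhibited ovaries. In both genes the highest anthesis ovary was almost level with the lowest later one, 0.06 and 0.10 apart on the log2 scale.

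No later group led the 13 genes. The inhibited mean was highest in 6 genes and lowest in 5, the unpollinated mean highest in 5 and lowest in 3, and the pollinated mean highest in 2 and lowest in 5. The widest range of later means was that of Csa1G269860, 0.69, and the median was 0.40, against 0.35 over all genes tested; the rule capped this range, so nothing is read from it. Pollinated replicate 2 was the lowest of the 8 later ovaries in 6 of the 13 genes. The share of all genes in which it was the lowest of the 8 is not given here, so nothing is read from this count. Within the unpollinated group, replicate 1, the ovary with the other form of the second index, was below the mean of replicates 2 and 3 in 11 of the 13 genes, by a median of 0.28 on the log2 scale, against a median difference of 0.007 over all genes tested. The part of the index in this was not tested.

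**Figure D2:**
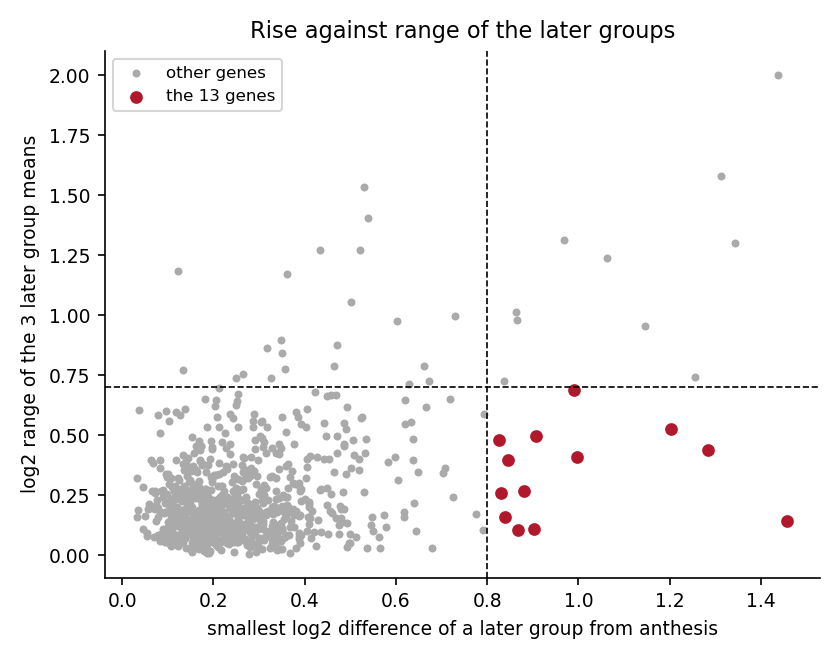
For the 869 genes that met both floors and whose anthesis ovaries lay below all later ovaries, the horizontal axis gives the smallest log2 difference of a later group mean from the anthesis mean, and the vertical axis the log2 range of the 3 later group means; dashed lines mark the thresholds of 0.8 and 0.7. The 13 genes, in red, fill the lower right corner, and 3 of them lie at 1.0 or beyond on the horizontal axis.

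Most of the 13 genes lay just inside the rule. The smallest difference from anthesis was 0.83 for Csa1G168880, and the nearest gene outside, Csa3G638530, had 0.79. Csa1G269860, with a range of 0.69, was followed outside by Csa5G611750 with 0.73. The lowest later mean inside was 53.5 for Csa3G199020, against 37.1 for Csa2G293350 outside. The narrowest gap was 0.06 for Csa3G127110, against an overlap of -0.15 for Csa1G710160. At anthesis the lowest mean was 25.0, for Csa7G450650, and 0 genes failed this floor alone. The rise was the clause that most often decided: 824 genes failed it alone, 10 failed the range alone, 8 the later level alone and 2 the absence of overlap alone.

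The nearest genes outside the rule, taken over all clauses, missed the rise of 0.8 by little. Csa3G638530 had 79.9, 124 and 91.8 at anthesis, 190, 167 and 152 with pollen, 291, 270 and 207 without it, and 141 and 201 in inhibited ovaries. Csa2G002510 had 434, 499 and 352 at anthesis, 772, 781 and 816 with pollen, 709, 738 and 897 without it, and 849 and 636 in inhibited ovaries. The latter was as even across the later groups as the evenest of the 13, with a range of 0.10. Csa6G526550 had a smallest difference of 0.78, a range of 0.17 and a gap of 0.02. Among the 10 genes outside by range alone, the unpollinated mean was highest in 5 and the inhibited mean lowest in 5.

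Calls in the fit over all genes are set beside their background, and nothing is read from them, because the rule used the same contrasts. By the edgeR quasi-likelihood test on raw counts (Benjamini-Hochberg adjusted p under 0.05 over 18679 genes, which include all 13), 8 of the 13 were called higher with pollen than at anthesis, against 7.39% of all genes. In unpollinated ovaries 12 were called higher, against 17.6%, and in inhibited ovaries 6, against 4.0%. A term for the second index, which both inhibited and all but 1 of the unpollinated libraries carry in the other form, left these counts at 8, 3 and 0 (12, 6 and 5 at an unadjusted p under 0.05). Only the unpollinated group holds both forms, so this term rests on its replicate 1 against its replicates 2 and 3. The share of all genes called with this term is not given here, so the lower counts are not read as particular to the 13. The part of the index in the calls was not tested beyond this. The 3 comparisons share the anthesis libraries. All 3 calls were made for 6 genes, Csa7G222870, Csa4G379280, Csa1G058090, Csa1G168880, Csa3G164580 and Csa6G153490, while Csa7G450650 was called in none. Its log2 fold changes were 1.35 ± 0.49 SE, 0.89 ± 0.49 SE and 1.12 ± 0.54 SE, among the largest standard errors of the set. Absence of overlap between anthesis and later ovaries, which the rule required, was met by 4.84% of the genes tested.

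Between the later groups, 0 of the 13 were called for pollinated against unpollinated ovaries, where 30.3% of all genes were called, and 0 for inhibited against pollinated, where 11.3% were (edgeR). At an unadjusted p under 0.05 these counts were 2 and 1 with edgeR and 1 and 1 with DESeq2, which also called 0 after adjustment. For inhibited against unpollinated ovaries 1 gene was called, against 19.6%: Csa4G379280, lower in inhibited ovaries by a log2 fold change of -0.53 ± 0.17 SE. This count was 0 without any 1 of the unpollinated or inhibited libraries, without anthesis replicate 1, and in a fit with a term for the second index. The rule kept the later means close, so few calls follow from the choice, and with these standard errors they do not show equal levels.

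**Figure D3:**
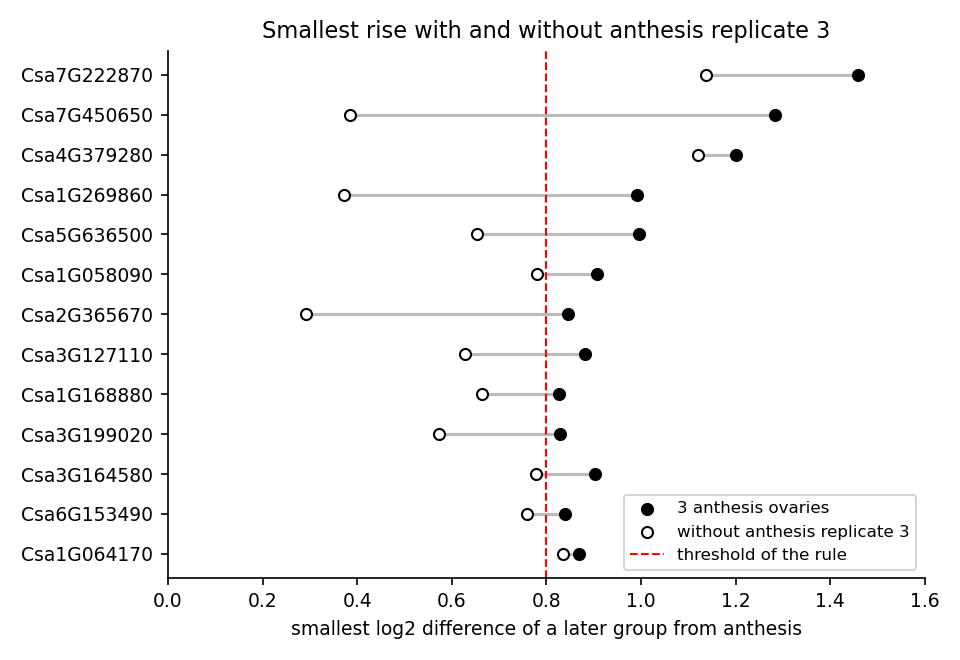
For each gene the filled circle gives the smallest log2 difference of a later group mean from the mean of all 3 anthesis ovaries, and the open circle the same without anthesis replicate 3; the dashed line is the threshold of 0.8. All 13 filled circles lie right of the line, and 3 open circles do.

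Without anthesis replicate 3, the rule was met by 4 genes, of which 3 were among the 13: Csa7G222870, Csa4G379280 and Csa1G064170. The median rise of the 13 genes fell from 1.06 to 0.83, and their smallest difference from anthesis ran from 0.29 to 1.14, with a median of 0.66. The largest loss was that of Csa7G450650, whose rise went from 1.5 to 0.60. Csa2G365670 went from 1.06 to 0.51 and Csa1G269860 from 1.37 to 0.75. The absence of overlap was unaffected, because it depends on the highest anthesis ovary, which was replicate 2 in 9 genes and replicate 1 in 4. All 13 genes thus stayed below all 8 later ovaries in each of the other 2 anthesis libraries, by 0.06 to 0.90 on the log2 scale. The edgeR calls without anthesis replicate 3 were 4 with pollen, 9 without it and 3 in inhibited ovaries. In the same order they were 6, 12 and 3 without anthesis replicate 1, and 7, 11 and 6 without anthesis replicate 2. The share of all genes called in these fits is not given here, so the fall is not read as particular to the 13. The gene that met the rule only in the absence of anthesis replicate 3 was Csa3G872170, with 33.2 and 47.1 in the first 2 anthesis ovaries and 78.9 in the third.

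The name given to the set, a rise whatever the treatment, holds for all 13 genes by construction, but a rise of 0.8 in every later group was reached without the lane 2 library by only 3 of them. Csa7G222870 and Csa4G379280 met the rule with any 1 of the 11 libraries left out. The first form of the second index holds the anthesis and pollinated ovaries and unpollinated replicate 1. Within it the rise of the 13 genes ran from 0.71 to 1.55 with a median of 1.02. Of the 13, 10 met the rule there, among 45 genes that did, but no inhibited ovary takes part. When the 4 libraries rich in unassigned reads were left out, the rise of the 13 genes ran from 0.69 to 1.53 with a median of 1.03. In that subset 6 of the 13 still met the rule, among 10 genes that did. Neither subset could show an overlap, since both keep the anthesis ovaries and only drop later ones.

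**Figure D4:**
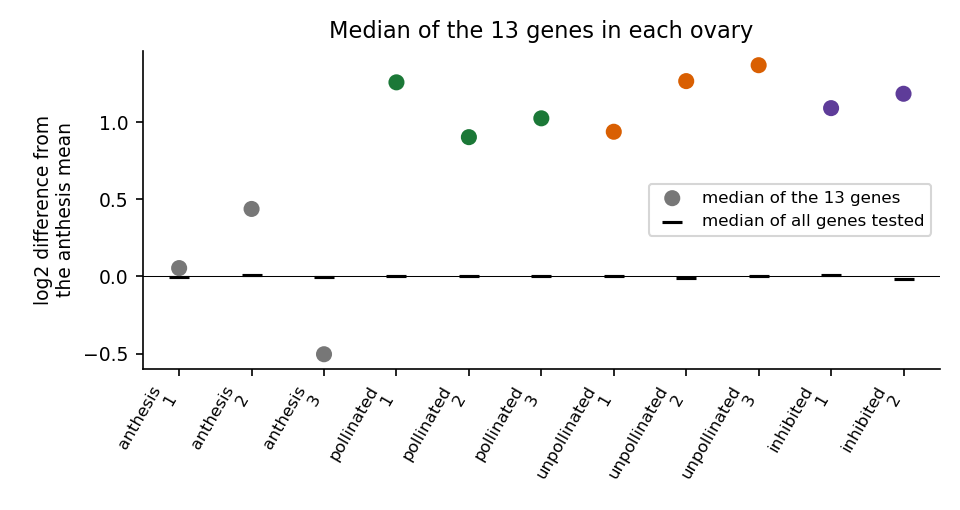
Each point is the median over the 13 genes of log2(normalized count + 1) minus the anthesis mean in 1 ovary, and each bar the same median over all genes tested. The 8 later ovaries lie between 0.90 and 1.37, the anthesis ovaries at 0.05, 0.44 and -0.50, and all bars lie near 0.

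Ovary by ovary, the medians of the 13 genes were 1.26, 0.90 and 1.02 with pollen, 0.94, 1.27 and 1.37 without it, and 1.09 and 1.18 in inhibited ovaries. The 3 later groups overlapped on this summary, which the limit on their range favoured. Each of the 13 genes was above its anthesis mean in each later ovary, as the rule required. At anthesis, 0 of the 13 were above that mean in replicate 3, 7 in replicate 1 and 11 in replicate 2.

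By identifier the 13 genes did not lie next to each other. Whether their neighbours share the pattern with a smaller rise was not tested. By the digit after Csa, which in cucumber gene models stands for the chromosome, 4 belonged to series 1, 3 to series 3, 2 to series 7 and 1 each to the others. At least 66 other identifiers lay between any 2 members of a series. The 26 identifiers next to the members had a median rise of 0.05, and 14 of them lay above 0, against 49.5% of all genes tested. Only Csa1G269870, next to Csa1G269860, had a rise of 0.8 or more, at 0.81.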

How the data were processed

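RNA-seq libraries of 11 cucumber ovaries were analysed. The deposited raw table holds whole-number read counts per gene; 5 further lines name no gene, hold 10.8 to 24.8% of a library's reads and were left out. The deposited normalized table holds a signal, the counts divided by 1 factor per library by the authors. Per the submitters' processing notes STAR 2.5.0a, HTSeq 0.6.1p1 and DESeq2 were named, with no role; for the build, annotation and strand setting, not given in the sources used here, nothing is assumed, so overlapping genes and near-identical copies may share reads.

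The rule was applied to the normalized values. Raw counts were filtered with filterByExpr (18679 genes) and fitted in 1 edgeR 4.0.16 quasi-likelihood model with TMM factors over 4 groups (R 4.3.3); DESeq2 1.42.0 was an alternative. The standard error is the log2 fold change divided by the square root of F. Self-tests on simulated data recovered planted genes, which checks the code only. Recovery at the spread of the 13 genes, a median SD within groups of 0.39 on the log2 scale, was not tested. The members, the rule and the lists were chosen with earlier results of these data known. Genes to be named were the 2 members each with the largest rise, smallest rise, most later reads and narrowest later range, and those at the thresholds; the other members are named for completeness. Replicate numbers only name libraries. Gene lists by function were not used, since 0 identifiers matched the 23999 genes of the Cucumber_9930_V3 table.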

Additional observations from a re-analysis of the deposited data

How the results depend on the processing

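The number of genes meeting the rule, 13, was 13 on rescaled TMM values and 11 to 13 with other pseudocounts, but 33 with a rise threshold of 0.6, 3 with 1.0, 35 with no floors and 45 within the first form of the second index, where no inhibited ovary takes part. With 1 library left out it ran from 4 (without anthesis replicate 3) to 29 (without anthesis replicate 2), with 21 without anthesis replicate 1. The median rise of 1.06 ran from 0.83 to 1.32 with 1 library left out and from 0.99 to 1.08 otherwise. Calls of members higher than at anthesis ran, with 1 library left out, from 4 to 8 for pollinated (5 without pollinated replicate 3), 8 to 12 for unpollinated and 3 to 8 for inhibited ovaries, the last with 3 without anthesis replicate 1 or 3 or inhibited replicate 1. Without the 4 libraries rich in unassigned reads, which leaves 1 pollinated ovary, the pollinated count was 1. A term for the second index, estimated within the unpollinated group alone, gave an unpollinated count of 3 and an inhibited count of 0 (5 at an unadjusted p under 0.05). For pollinated against unpollinated ovaries the count of 0 became 1 without the 4 libraries or without pollinated replicate 1, and ran from 0 to 1. For inhibited against unpollinated ovaries the count of 1 ran from 0 to 2 (2 without pollinated replicate 1), and was 0 with the index term, 0 without the 4 libraries and 2 with only these groups fitted. For inhibited against pollinated ovaries it stayed at 0 in all 17 alternatives. The share of all genes called in each alternative is not given here, and the causes were not tested. The rise of single genes ran from 0.51 to 1.97 over the alternatives; the choice of genes without overlap keeps it above 0, so this is no sign of stability. No paired analysis was possible because the labels give no replicate numbers. In genes with few reads, such as Csa7G450650, counting error limits the anthesis values. The anthesis ovaries of this gene also differed by more than that error. Replicate 3 held 5 reads (exact 95% Poisson interval 1.62 to 11.7). Replicates 1 and 2 held 38 (26.9 to 52.2) and 41 (29.4 to 55.6).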

Other observations

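When the same thresholds were turned round, so that anthesis ovaries lay above all later ones, 40 genes met the rule, against 13 in the direction described. Among these 40 genes, anthesis replicate 3 was the highest anthesis ovary in 4, whereas it was the lowest in 13 of the 13 rising genes. The share of all genes in which replicate 3 was the highest was not counted. Both sets were chosen from these anthesis values, so nothing is read from this contrast. The counts of the turned rule were added after the values were seen, and the difference in number was not tested.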
